A study of Mus musculus with 12 samples.

Results

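*Zscan4* and the genes that mark the two-cell-like state of mouse ES cells were read on 12 one-colour Agilent arrays. A gene belonged to the set when a probe carried its name, and the 10 genes were selected on their lower signal in *Sox7* (−/−) than in *Sox7* (+/−) ES cells on these same arrays. Of the 34836 names on the array 9 of the 10 genes were found, with 13 of the 55681 probes, and none carried the name *Zscan4d*. *Sox7* (+/−) ES cells held 1 allele in which the whole coding region had been replaced by a puromycin cassette, and *Sox7* (−/−) ES cells had been derived from that heterozygous line by gene conversion under high-dose puromycin. Both carried Gata6GR, a fusion of Gata6 with the ligand-binding domain of the glucocorticoid receptor, which drives ES cells towards XEN-like cells, a counterpart of primitive endoderm, once dexamethasone (Dex) is added. RNA was taken on day 4 without Dex (ES cells) or with Dex (XEN-like cells) from each genotype, in medium containing LIF on gelatin, and each of the 4 groups had 3 arrays. The arrays used 1 line of each genotype, so genotype and line cannot be told apart.

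The two-cell-like state is a rare and reversible condition in which ES cells transcribe genes that are otherwise switched on at zygotic genome activation, in the two-cell embryo. *Zscan4* genes encode proteins with a SCAN domain and zinc fingers, are clustered on chromosome 7, and are known for their role in telomere maintenance and genome stability of ES cells. The transcription factor Dux activates *Zscan4* and other genes of the state, and the repressors Trim28, Kdm1a and Chaf1a keep it off in most cells. In bulk RNA, fewer cells in the state and less RNA per such cell cannot be told apart.

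Of the *Zscan4* genes, *Zscan4c*, *Zscan4d* and *Zscan4f* are protein-coding in RefSeq, *Zscan4a* is a transcribed pseudogene and *Zscan4e* a pseudogene. Their transcripts are near copies of each other, and by their annotation some of the probes read more than 1 of them. *Zscan4c* probe 2 and both *Zscan4a* probes list only the gene they are named for. The accessions listed with the *Zscan4f* probe name *Zscan4a*, *Zscan4c* and *Zscan4d* as well, those with the *Zscan4e* probe name *Zscan4d* and *Zscan4f*, and of the 3 *Zscan4c* probes probe 1 lists *Zscan4a* and probe 3 *Zscan4a* and *Zscan4d*. The brightest *Zscan4a* and *Zscan4c* probes are shown by 30 bases each because they are almost the same probe. They overlap by 58 bases, of which 56 are identical, and the capitals mark the differences, G54A and C55T counted from the 5′ end of the *Zscan4c* probe. The other lines give the first 30 bases of the *Zscan4f* and *Zscan4e* probes and of both probes of *Zfp352*, which disagreed with each other below.
Zscan4c, probe 1: tgcattgcctcttcagacatctcatGCcat
Zscan4a, probe 1: tgcattgcctcttcagacatctcatATcat
Zscan4f: atgttgcaagtaaattgtactgtcccaata
Zscan4e: aattaccacagatctgactgaagtatctaa
Zfp352, probe 1: aatcagatctgtctcccttttagctccttt
Zfp352, probe 2: tatctcaaaaagcatctggagaagaaacat

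Over the 78 pairs of the 13 probes, the longest run of identical bases was 53 for that *Zscan4a* and *Zscan4c* pair and at most 9 for the others. Apart from that pair the *Zscan4* probes sample different stretches of near-identical transcripts, and a value for 1 *Zscan4* gene is uncertain as to which copy gave it. On mm9, the build of the array files, the *Zscan4a* probes lie on chromosome 7 from 11379626 to 11379738, the *Zscan4c* probes between 11594425 and 11595810, the *Zscan4e* probe from 11891736 to 11891795 and the *Zscan4f* probe from 11987608 to 11987667. *Gm21319* was read on chromosome 12 from 89265932 to 89265991, *Tmem92* on chromosome 11 from 94638552 to 94638611, and *Zfp352* on chromosome 4 from 89892270 to 89892329 with probe 1 and from 89891912 to 89891971 with probe 2. The *Tcstv3* probe was placed on an unassigned contig and the *Tcstv1* probe on no position.

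Promoter sequences of RefSeq (GRCm38.p6) were at hand for 5 of the 10 genes. Those of *Zscan4c*, *Zscan4d* and *Gm21319* are shown for the letters that the *Zscan4* promoters and *Gm21319* share or lack, and that of *Zfp352* for comparison, while *Zscan4f*, almost the same as *Zscan4c*, is left out. Each line below gives the 250 bases before the annotated start, 5′ to 3′ on the strand of the gene, and the capitals mark TATAAA and TGATTNAAT, which holds letters of the binding motif described for Dux and was shortened to this form after the sequences had been seen.
Zscan4c, chr7:11005495-11005744, plus strand: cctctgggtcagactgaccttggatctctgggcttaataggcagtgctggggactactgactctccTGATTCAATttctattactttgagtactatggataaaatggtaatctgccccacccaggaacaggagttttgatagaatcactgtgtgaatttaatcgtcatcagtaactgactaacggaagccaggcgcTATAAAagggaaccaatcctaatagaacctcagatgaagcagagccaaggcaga
Zscan4d, chr7:11166149-11166398, minus strand: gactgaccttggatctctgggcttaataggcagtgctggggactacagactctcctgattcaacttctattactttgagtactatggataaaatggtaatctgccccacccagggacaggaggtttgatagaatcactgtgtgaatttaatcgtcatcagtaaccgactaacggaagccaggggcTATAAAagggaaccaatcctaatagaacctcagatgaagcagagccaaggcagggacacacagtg
Gm21319, chr12:87775756-87776005, minus strand: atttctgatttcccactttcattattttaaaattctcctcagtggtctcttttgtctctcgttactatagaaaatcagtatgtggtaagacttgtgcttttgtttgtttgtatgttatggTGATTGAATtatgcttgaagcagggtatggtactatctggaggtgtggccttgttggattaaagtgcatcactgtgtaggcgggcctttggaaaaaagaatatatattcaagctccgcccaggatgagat
Zfp352, chr4:90218570-90218819, plus strand: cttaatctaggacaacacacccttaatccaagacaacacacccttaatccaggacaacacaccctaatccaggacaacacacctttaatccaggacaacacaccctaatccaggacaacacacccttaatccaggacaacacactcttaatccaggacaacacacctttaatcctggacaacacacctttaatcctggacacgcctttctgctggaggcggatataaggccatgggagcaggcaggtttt

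The promoters of *Zscan4c* and *Zscan4f* were identical at 275 of 277 aligned bases (99.3%), and those of *Zscan4c* and *Zscan4d* at 281 of 289 (97.2%). TGATTNAAT, searched on both strands, was found once each for *Zscan4c*, *Zscan4f* and *Gm21319* and not for *Zscan4d* or *Zfp352*. Of all 32851 RefSeq promoter windows, 0.658% held it. The motif had been shortened after these sequences were seen, and the *Zscan4c* and *Zscan4f* promoters are near copies. Its matches are therefore not compared with that share. TATAAA was found for all 3 *Zscan4* promoters and in 12.4% of the windows. AGATAA, letters of a GATA site, was found for *Zscan4f* alone (9.99% of windows), and AACAAT, letters of a Sox site, for none of the 5 (9.42%). The *Zfp352* window is a tandem repeat, with 9 copies of ACAACACAC. These matches describe the letters and are not binding sites.

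Signals are given as log2 relative to the 75th percentile of the signals on the same array, so that 0 is that percentile, and the scanner software marked a probe as well above background or not. *Sox7* itself, with 3 values between 1.12 and 1.19 in *Sox7* (+/−) ES cells, was not well above background on any of the 6 *Sox7* (−/−) arrays. The arrays came from 2 slides. All 3 *Sox7* (−/−) ES samples shared slide 1 with replicate 1 of the *Sox7* (−/−) XEN-like cells, and the other 8 samples were on slide 2, so that the ES comparison has no value within a slide. The median of all tested probes differed by 0.10 (log2) between the genotypes in ES cells. Sums of markers went with the labels, but single markers did not all do so. *Klf4*, an ES cell marker, rose with Dex by 1.46 in *Sox7* (+/−) and 0.50 in *Sox7* (−/−) cells, while the other 7 fell. Of the XEN markers, *Gata6* changed by only 0.27 and 0.37 (standard error 0.19 each). The Gata6GR transgene contains full-length mouse *Gata6*, and whether this probe reads it was not tested. *Sox7*, which is also among the XEN markers, changed by −0.27 in *Sox7* (−/−) cells, where it was below background with and without Dex. The summed signal of 8 ES cell markers was 5399 to 8270% of the 75th percentile on the XEN-like arrays and 28180 to 58059% on the ES arrays, and that of 9 XEN markers was 106465 to 124895% and 30002 to 41257%.

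All 13 probes were well above background on the 3 *Sox7* (+/−) ES arrays, 7 were on the 3 *Sox7* (−/−) ES arrays, 4 on the 3 *Sox7* (−/−) XEN-like arrays and 1 on the 3 *Sox7* (+/−) XEN-like arrays. The filter kept a probe that 1 group or more had well above background on its 3 arrays, and 6 of the 13 passed only through the *Sox7* (+/−) ES cells, so that they had to differ from the other groups.

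**Figure D1:**
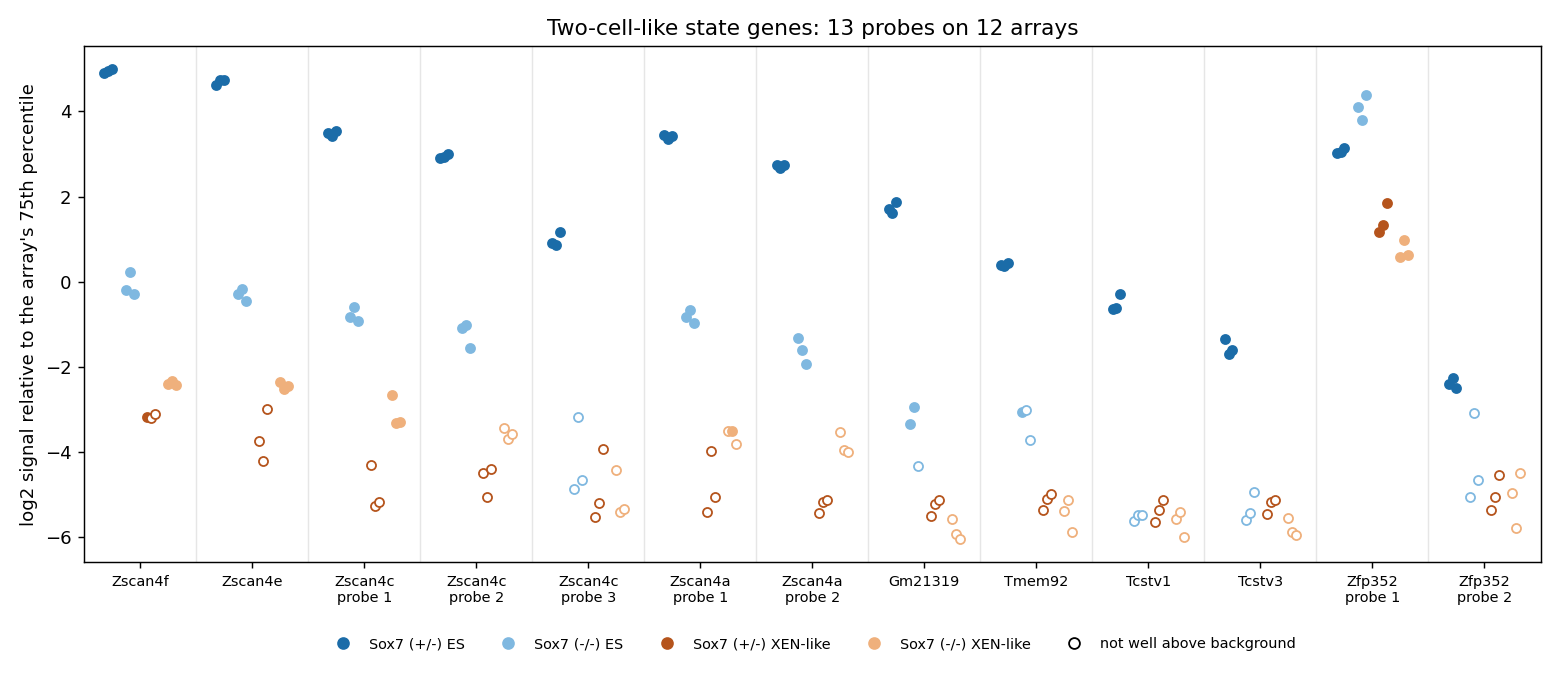
Log2 signal over the 75th percentile of each array (y axis) for each of the 13 probes (x axis) on all 12 arrays, 3 points per group, with open points where the probe was not well above background. For 12 probes the *Sox7* (+/−) ES arrays are the highest, and for *Zfp352* probe 1 the *Sox7* (−/−) ES arrays are.

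*Zscan4* signal was high in *Sox7* (+/−) ES cells, lower in *Sox7* (−/−) ES cells and lowest in XEN-like cells. The *Zscan4f* probe read 4.89, 4.95 and 4.98 on the *Sox7* (+/−) ES arrays and −0.19, 0.24 and −0.30 on the *Sox7* (−/−) ES arrays. In XEN-like cells it read −3.17, −3.20 and −3.11 for *Sox7* (+/−) and −2.41, −2.32 and −2.43 for *Sox7* (−/−). No 2 of the 4 groups overlapped, and the order was *Sox7* (+/−) ES, *Sox7* (−/−) ES, *Sox7* (−/−) XEN-like, *Sox7* (+/−) XEN-like. The *Zscan4e* probe had the same order, with 4.61, 4.73 and 4.74, then −0.28, −0.18 and −0.45 in ES cells, then −2.36, −2.51 and −2.44 and last −3.74, −4.21 and −3.00 in XEN-like cells, the last 3 not well above background. *Zscan4c* probe 1 read 3.49, 3.42 and 3.55 in *Sox7* (+/−) and −0.83, −0.59 and −0.93 in *Sox7* (−/−) ES cells. It read −2.66, −3.31 and −3.29 in *Sox7* (−/−) XEN-like cells and was below background in *Sox7* (+/−) XEN-like cells. *Zscan4a* probe 1, nearly the same sequence, read 3.43, 3.35 and 3.42, then −0.82, −0.67 and −0.98 in ES cells.

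In the comparison that chose the genes, 6 of the 7 *Zscan4* probes could be measured on all arrays of both ES groups. Their log2 difference, *Sox7* (−/−) minus *Sox7* (+/−), lay between −5.02 and −4.15, so that 3.08 to 5.63% of the *Sox7* (+/−) signal was left. For the *Zscan4f* probe it was −5.02 (standard error 0.12, n = 3 arrays per group) and for *Zscan4c* probe 1 −4.27 (standard error 0.25, n = 3). *Zscan4c* probe 3, which was below background on all *Sox7* (−/−) ES arrays, was at least 20.5-fold lower there. By their brightest probe, 8 of the 9 genes were called lower (more than 2-fold with an adjusted p below 0.05) and 1 higher, where 6.67% of all 25940 tested probes were called lower and 1.95% higher. Nothing is read from these counts, since the comparison selected the genes. With the slide as a term, the difference was −4.99 for *Zscan4f* (standard error 0.23) and −4.91 for *Zscan4c* probe 1 (standard error 0.40). That term rests on 1 *Sox7* (−/−) XEN-like array on slide 1 against 2 on slide 2, at low signal. For *Zscan4c* probe 1 these read −2.66 against −3.31 and −3.29. Whether the same shift holds at the brighter signal of ES cells was not tested. The *Sox7* (−/−) XEN-like array on slide 1 lay between 0.22 below and 0.95 above the mean of the other 2 on slide 2 over the 13 probes (log2, median 0.16, with 0.02 over all tested probes).

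The genes outside the *Zscan4* family fell to the background in *Sox7* (−/−) ES cells or near it. *Tcstv1*, which like *Tcstv3* belongs to a variable group of two-cell-stage genes, read −0.64, −0.61 and −0.30 in *Sox7* (+/−) ES cells and was below background on the other 9 arrays. The *Sox7* (+/−) ES cells exceeded the *Sox7* (−/−) ones at least 7.74-fold. *Tcstv3* read −1.35, −1.70 and −1.61 and was likewise below background elsewhere, at least 3.77-fold lower in *Sox7* (−/−) ES cells. *Gm21319* read 1.70, 1.62 and 1.87 against −3.35, −2.93 and −4.32 in *Sox7* (−/−) ES cells, 2 of the latter 3 well above background, a difference of −5.26 (standard error 0.29, n = 3). *Tmem92*, which encodes a transmembrane protein, read 0.40, 0.36 and 0.45 against −3.05, −3.02 and −3.71, well above background on 1 of the 3 latter arrays, a difference of −3.66 (standard error 0.22, n = 3). These 4 genes were selected on this comparison and passed the filter only through the *Sox7* (+/−) ES cells, so the differences are a description.

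*Zfp352*, a zinc finger gene of the two-cell embryo, was the exception, and its 2 probes went opposite ways. Probe 2 read −2.40, −2.27 and −2.48 in *Sox7* (+/−) ES cells and was below background in the other 3 groups, at least 1.96-fold lower in *Sox7* (−/−) ES cells. Probe 1 was well above background on all 12 arrays. It read 3.01, 3.04 and 3.14 in *Sox7* (+/−) and 4.10, 3.79 and 4.37 in *Sox7* (−/−) ES cells, 2.04-fold higher in the latter (log2 difference 1.03, standard error 0.19, n = 3). It was under 2-fold with 5 other scalings or background corrections, at 0.87 to 0.98, and at 0.88 without *Sox7* (−/−) ES replicate 3. The accessions of both probes name *Zfp352* and no other of the 10 genes, and which probe follows its transcript was not tested. The fall described for *Zfp352* therefore rests on the dimmer probe.

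**Figure D2:**
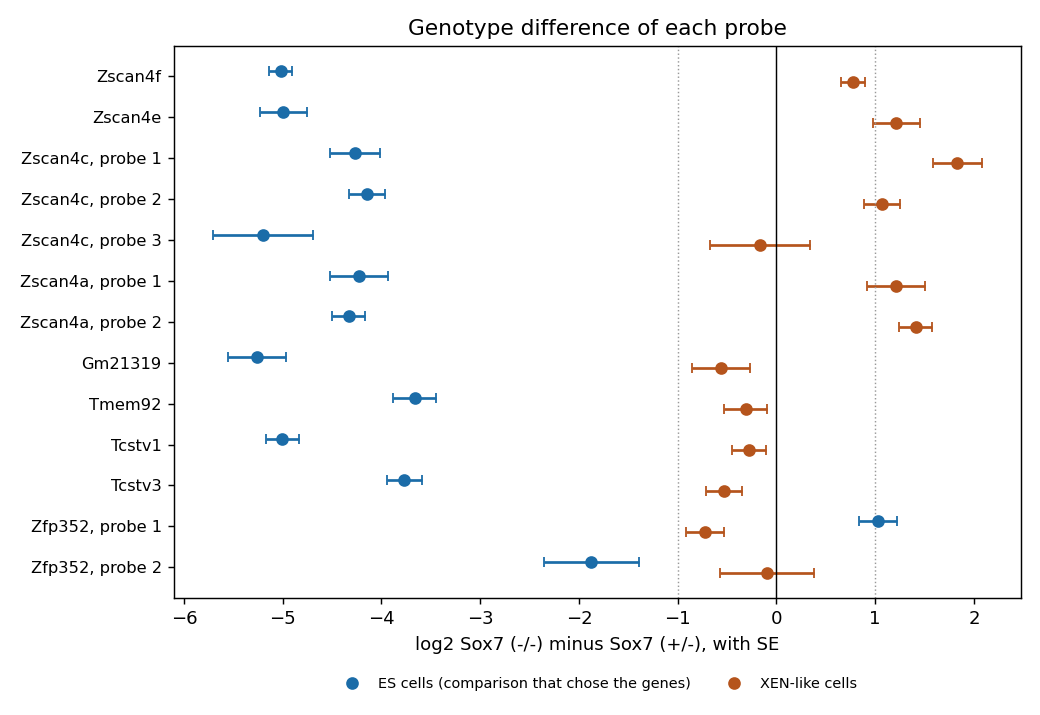
Log2 difference between *Sox7* (−/−) and *Sox7* (+/−) cells with its standard error (x axis) for the 13 probes (y axis), in ES cells, which chose the genes, and in XEN-like cells. Dotted lines mark 2-fold, and 6 *Zscan4* probes lie left of 0 in ES cells and right of it in XEN-like cells.

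The XEN-like cells gave a comparison of the genotypes that the choice of genes had not used. There the *Zscan4* signal was low in both genotypes and higher in *Sox7* (−/−) cells for every *Zscan4* probe but *Zscan4c* probe 3. That probe was below background in both groups, which overlapped (log2 difference −0.17, limma adjusted p = 0.82). By their brightest probe, *Zscan4a*, *Zscan4c* and *Zscan4e* were called higher, 3 of 9 genes, and none was called lower, where 3.86% of all tested probes were called higher and 3.65% lower. The 3 are not separate readings. The *Zscan4a* and *Zscan4c* probes are identical at 56 of 58 overlapping bases, and the *Zscan4e* probe lists *Zscan4d* and *Zscan4f*, near copies of the others. The limma log2 difference was 1.83 for *Zscan4c* probe 1 (standard error 0.25, adjusted p = 4.6e-04) and 1.22 for *Zscan4e* (standard error 0.24, adjusted p = 0.0037). For *Zscan4a* probe 1 it was 1.21 (standard error 0.29, limma adjusted p = 0.011). For each, every *Sox7* (−/−) XEN-like array lay above every *Sox7* (+/−) one. The standard errors pool the spread of all 4 groups and need not match that of the XEN-like arrays. For *Zscan4a* probe 1 the standard deviation was 0.75 in *Sox7* (+/−) and 0.17 in *Sox7* (−/−) XEN-like cells. In ES cells it was 0.05 and 0.15. *Zscan4f* differed by 0.78 (standard error 0.12, limma adjusted p = 9.8e-04), also with no overlap of the groups, but under 2-fold. These probes were near the floor. *Zscan4c* probe 1 and *Zscan4e* were below background on all *Sox7* (+/−) XEN-like arrays, so that only bounds hold, at least 1.26-fold and at least 1.83-fold higher, and for *Zscan4a* probe 1 no fold could be given. With normexp background correction none of the 9 genes was called, and *Zscan4c* probe 1 differed by 0.16 (limma adjusted p = 0.17). None was called in the table of unscaled signals either. Within slide 2, with 2 *Sox7* (−/−) and 3 *Sox7* (+/−) XEN-like arrays, 2 of the 9 were called higher, and *Zscan4c* probe 1 differed by 1.62 (limma adjusted p = 0.0089) and *Zscan4a* probe 1 by 1.16 (limma adjusted p = 0.076).

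The remaining genes were not called between the genotypes in XEN-like cells. *Gm21319*, *Tcstv1*, *Tcstv3*, *Tmem92* and *Zfp352* probe 2 were below background on all 6 arrays. *Zfp352* probe 1 read 1.17, 1.34 and 1.85 in *Sox7* (+/−) and 0.58, 0.98 and 0.63 in *Sox7* (−/−) XEN-like cells, a difference of −0.72 (standard error 0.19, limma adjusted p = 0.017, under 2-fold). This probe thus lay higher in *Sox7* (−/−) cells without Dex and lower with it.

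With Dex, *Zscan4* signal fell in both genotypes, from unequal starting levels. Each Dex comparison shares its ES arrays with the choice of genes, so the values are a description. In *Sox7* (+/−) cells the *Zscan4f* probe was lower by 8.10 on the log2 scale with Dex (change −8.10, standard error 0.12, n = 3) and was well above background on 1 of 3 XEN-like arrays. *Zscan4e* was at least 257-fold lower, *Zscan4c* probe 1 at least 119-fold and *Zscan4a* probe 1 at least 112-fold. *Gm21319* was at least 35.2-fold lower with Dex, *Tmem92* at least 14.1-fold, *Tcstv1* at least 7.45-fold and *Tcstv3* at least 3.63-fold. All 9 genes were called lower by the brightest probe, where 14.0% of tested probes were called lower and 11.0% higher. In *Sox7* (−/−) cells, 3 *Zscan4* probes were well above background on all ES and XEN-like arrays. *Zscan4f* changed by −2.30 with Dex (standard error 0.12, n = 3), *Zscan4c* probe 1 by −2.30 (standard error 0.25) and *Zscan4e* by −2.13 (standard error 0.24). *Zscan4c* probe 2 was at least 5.12-fold and *Zscan4a* probe 2 at least 4.37-fold lower, and *Zscan4a* probe 1 was well above background on 1 of the 3 XEN-like arrays. There 7 of 9 genes were called lower, where 14.2% of tested probes were called lower and 14.6% higher. The 2 not called were *Tcstv1* and *Tcstv3*, below background on all 6 *Sox7* (−/−) arrays. *Zfp352* probe 1 changed by −1.61 (standard error 0.19) in *Sox7* (+/−) and by −3.36 (standard error 0.19) in *Sox7* (−/−) cells. The difference between the Dex changes was called positive for 8 of the 9 genes and negative for *Zfp352* by probe 1, where 6.62% of tested probes were called positive. Low *Sox7* (−/−) ES signal had selected the genes and most XEN-like values lay at background, so nothing is read from that count.

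**Figure D3:**
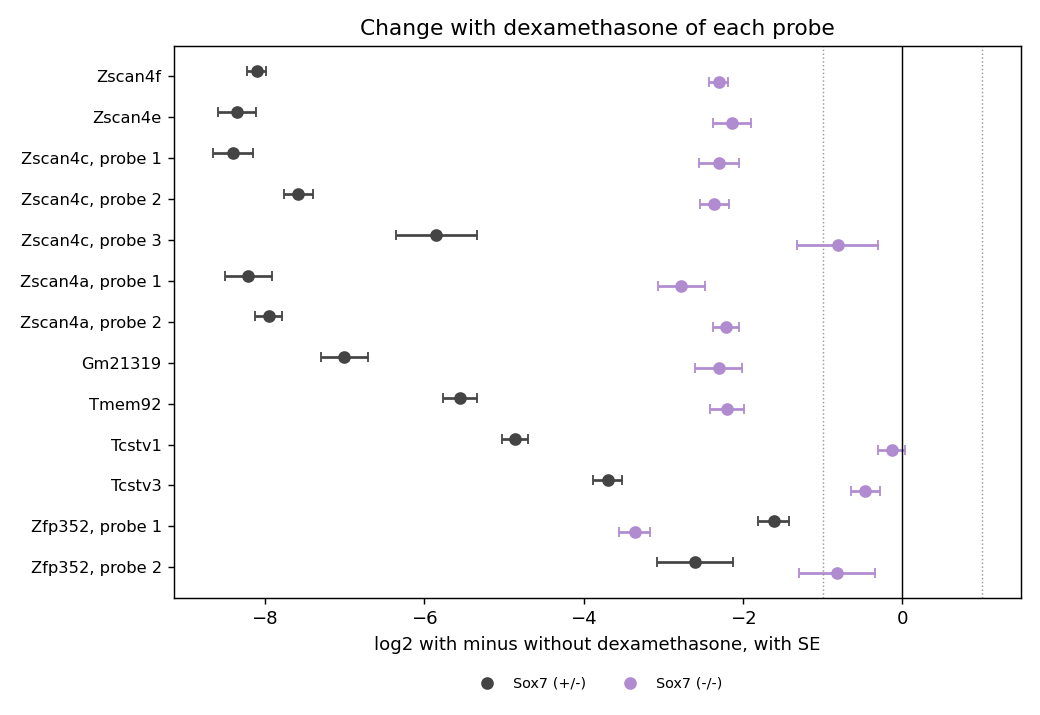
Log2 change with Dex and its standard error (x axis) for the 13 probes (y axis) in *Sox7* (+/−) and *Sox7* (−/−) cells, with dotted lines at 2-fold. The *Zscan4f* probe lies at −8.10 and −2.30, and *Zfp352* probe 1 has the smaller fall in *Sox7* (+/−) cells.

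Other genes of the two-cell-like state were read from a list of 77 names, of which 45 had a probe and 33 passed the filter. In *Sox7* (−/−) ES cells 22 of the 33 were called lower and 1 higher, beside 6.67% and 1.95% of all tested probes. The filter had kept 11 of the 33 only through the *Sox7* (+/−) ES cells, so that they had to differ, and all 11 are among the 22. The median difference of the 33 was −2.44 on the log2 scale. *Gm20767* had a difference of −4.76 (standard error 0.22), *AF067061* of −4.62 (standard error 0.21) and *Gm4340* of −4.40 (standard error 0.20), all well above background on all 12 arrays. *Gm12794*, at 0.62 in *Sox7* (+/−) ES cells and below background elsewhere, was at least 17.1-fold lower, and *Gm8300* at least 15.5-fold. The one called higher was *Pramel7*, a gene of the *Prame* family, with 2.50 (standard error 0.21). Of the 22, 11 were well above background on all *Sox7* (−/−) ES arrays and 8 on none. *Sp110* repeated the case of *Zfp352*. Its brightest probe differed by 0.17, whereas its other 2 tested probes had differences of −3.20 and −2.30. Both *Dux* probes were below background on all ES arrays.

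**Figure D4:**
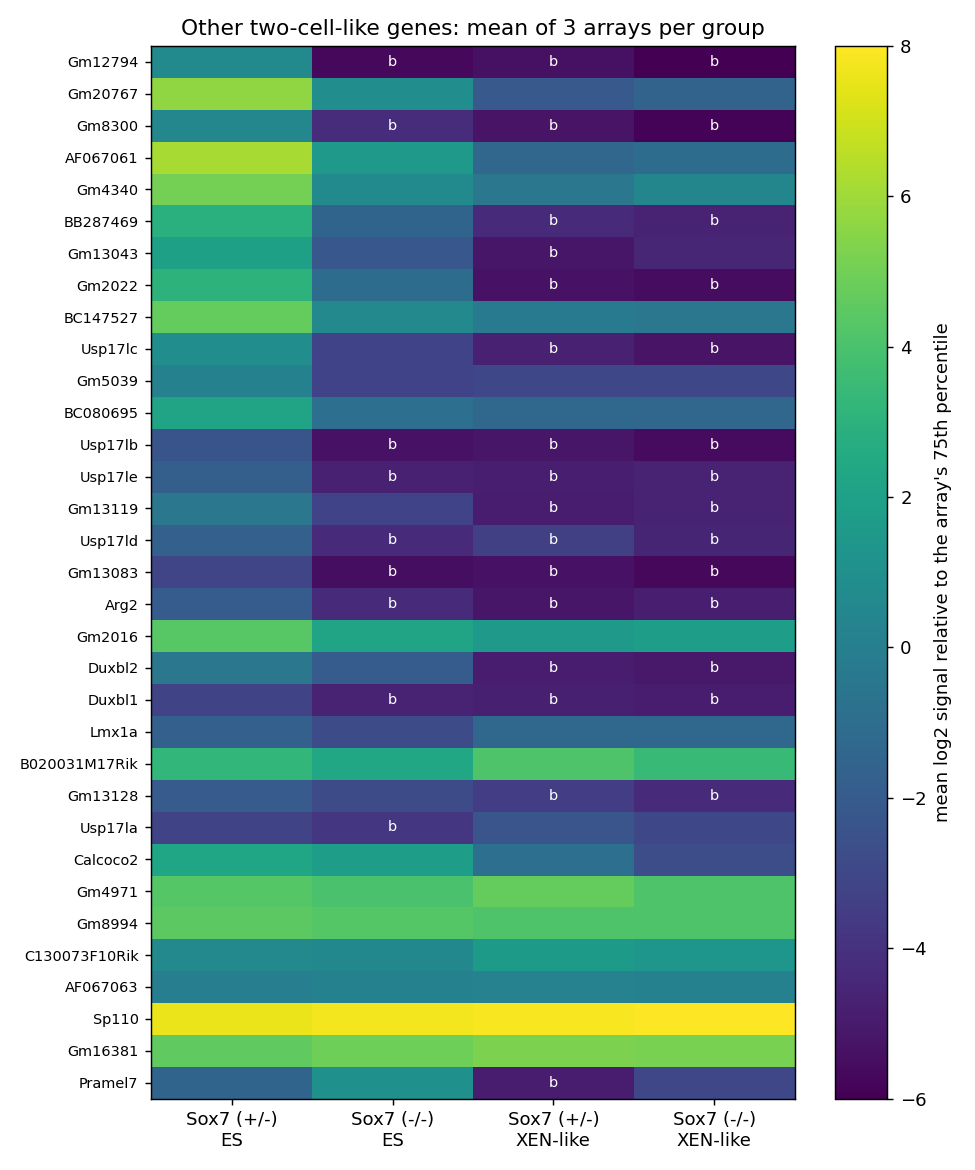
Mean log2 signal of 3 arrays, scaled as above (colour), in the 4 groups (columns) for the brightest probe of 33 other two-cell-like genes (rows), ordered by their difference between the ES groups. The letter b marks groups in which the probe was well above background on no array, and *Pramel7* in the last row was higher in *Sox7* (−/−) ES cells.

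With Dex 24 of the 33 were called lower and 1 higher in *Sox7* (+/−) cells, and 13 lower and 1 higher in *Sox7* (−/−) cells. Over all tested probes these shares were 14.0% and 11.0%, then 14.2% and 14.6%. The 11 genes that the filter kept only through the *Sox7* (+/−) ES cells had to differ with Dex in that genotype. They were not well above background on all *Sox7* (−/−) ES arrays, so the counts of the 2 genotypes are not compared. In *Sox7* (+/−) cells *Gm20767* changed by −7.73 (standard error 0.22), *AF067061* by −7.53 (standard error 0.21), and *Gm2022* was at least 87.4-fold lower. *BB287469* was at least 79.1-fold and *Gm13043* at least 40.8-fold lower, and *C130073F10Rik* had a change of 1.03 (standard error 0.22), with 1.42, 1.22 and 2.30 on the XEN-like arrays. Without the third of these, and with 5 other scalings or background corrections, 0 of the list were called higher. In *Sox7* (−/−) cells *Calcoco2* changed by −4.48 (standard error 1.04) and *Pramel7* by −4.02 (standard error 0.21), whereas *Lmx1a*, a homeobox gene, rose by 1.47 (standard error 0.13). *Gm2022*, *BB287469* and *Duxbl2* were at least 6.35-fold, 4.74-fold and 3.46-fold lower there. Between the genotypes in XEN-like cells only *Pramel7*, at least 1.34-fold higher in *Sox7* (−/−) cells (limma adjusted p = 1.2e-04), and *Usp17ld*, below background in both groups, were called. Of the 3 genes named above as well above background on all arrays, *Gm4340* differed by 0.90 in XEN-like cells (limma adjusted p = 0.0075, under 2-fold), *Gm20767* by 0.52 (limma adjusted p = 0.093) and *AF067061* by 0.35 (limma adjusted p = 0.22).

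Regulators of the state were read from 32 genes, all of which were tested. In ES cells 1 was called lower and 1 higher, beside 6.67% and 1.95% of all tested probes, which is near that share. *Dppa3*, a maternal factor also called Stella, had a difference of −1.95 (standard error 0.31) and *Zfp42*, which encodes the pluripotency-associated Rex1, of 1.09 (standard error 0.07). The median over the 32 was 0.35, with 0.10 over all tested probes, and 28 of the 32 had a higher mean in *Sox7* (−/−) ES cells. Of the 27 repressors 25 did, with a median of 0.38, and of the 5 activators 3. How many of all tested probes did so was not counted, so nothing is read from these numbers. *Trim28*, a corepressor of retroviral elements, differed by 0.54 (limma adjusted p = 1.8e-04). *Kdm1a*, a histone demethylase, differed by 0.14 (limma adjusted p = 0.10) and *Chaf1a*, a subunit of the histone chaperone CAF-1, by 0.32 (limma adjusted p = 0.05). None of these was called, each being under 2-fold. In XEN-like cells *Dppa4* and *Dppa2*, chromatin factors that activate *Dux*, were higher in *Sox7* (−/−) cells by 1.30 (standard error 0.10, limma adjusted p = 1.0e-05) and 1.02 (standard error 0.18, limma adjusted p = 0.0024), and *Zfp42* by 1.11 (standard error 0.07, limma adjusted p = 2.7e-06). No other regulator was called there. With Dex 9 of the 32 were called lower in *Sox7* (+/−) and 11 in *Sox7* (−/−) cells, and none higher, beside 14.0% and 14.2% of all tested probes called lower and 11.0% and 14.6% higher. *Zfp42* changed by −4.20 and −4.18 (standard error 0.07 each) and *Dppa2* by −3.83 and −3.01 (standard error 0.18 each). *Dppa4* changed by −2.87 in *Sox7* (+/−) cells (standard error 0.10). *Tet1*, which encodes a DNA dioxygenase, changed by −2.59 and −2.61 (standard error 0.14 each), and *Tet2* by −2.86 in *Sox7* (−/−) cells (standard error 0.09). *Dppa3* was at least 8.36-fold and at least 2.71-fold lower.

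Markers of other states moved beside these genes, and their part in the results was not tested. Over all tested probes, 6.67% were called lower and 1.95% higher in *Sox7* (−/−) ES cells. In *Sox7* (−/−) XEN-like cells 3.65% were called lower and 3.86% higher. Of 4 tested trophectoderm markers, *Cdx2* (−2.12) and *Hand1* (−1.68) were called lower in *Sox7* (−/−) ES cells. In XEN-like cells *Eomes* (1.89), *Cdx2* (1.72) and *Hand1* (1.33) were called higher in *Sox7* (−/−) cells, with limma adjusted p of 5.6e-07, 0.0055 and 2.9e-04. *Hand1* was below background in both XEN-like groups, and *Cdx2* in the *Sox7* (+/−) one. Their summed signal was 712 to 727% of the 75th percentile in *Sox7* (+/−) ES cells, 403 to 428% in *Sox7* (−/−) ES cells, 82.0 to 100.2% in *Sox7* (+/−) XEN-like cells and 222 to 253% in *Sox7* (−/−) XEN-like cells. *Elf5* did not pass the filter and was not tested. Of 8 ES cell markers, 3 were called higher and none lower in *Sox7* (−/−) ES cells, with a summed signal of 54433 to 58059% against 28180 to 28978%. Between the XEN-like groups that sum was 7570 to 8270% in *Sox7* (−/−) and 5399 to 5866% in *Sox7* (+/−) cells. Of 4 fibroblast markers, 2 were called lower and 1 higher in *Sox7* (−/−) ES cells, with a summed signal of 401 to 433% against 376 to 415%.

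Of the 10 probes whose profile over the 12 arrays was most like the mean of the 9 genes, 5 read genes on the two-cell-like list. Pearson's r, a description over 12 arrays in 4 groups, was highest for *TC1593528* (r = 0.999), *AF067061* (0.998 and 0.994 for its 2 probes), *Gm20767* (0.997), *Gm2016* (0.995), *Gm11237* (0.995), the POU factor gene *Pou3f1* (0.994) and *Gm2022* (0.992). The other 2 of the 10 probes carried no gene name. For the deviations from the 4 group means, the 10 highest r were 0.944 to 0.973, and these were mostly bright probes such as those of *Rps10*, *Rps13*, which encode ribosomal proteins, and *Prelid1*. Within groups the 7 *Zscan4* probes shared little, with a median r of 0.27 over their 21 pairs.

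Neighbouring genes were read beside the 6.67% of all tested probes called lower in *Sox7* (−/−) ES cells, with no test. Within 500000 bases of the *Zscan4* probes on mm9, 13 further probes were tested and 2 were called lower in *Sox7* (−/−) ES cells, neither with a gene name, and their median difference was −0.03. Around *Gm21319*, 18 of 40 further probes were called lower, among them those of *Gm2016*, *Gm2022*, *Gm8300*, *Gm5039* and *BB287469*, which are on the list of two-cell-like genes, and of *Gm7104*. The median there was −0.75. Around *Tmem92* 5 of 33 were called lower and 2 higher, with a median of −0.02, and around *Zfp352* no further probe was tested.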

How the data were processed

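Total RNA had been labelled with Cy3 and hybridized by the authors to 12 one-colour SurePrint G3 mouse 8x60K arrays. The intensity values deposited per array were made with Agilent Feature Extraction 10.7.3.1, whose processed signal is background-subtracted but not scaled between arrays, and positions are on mm9. The deposited series table holds linear intensity within 0.498% of the mean spot signal, neither background-subtracted nor scaled, and served as an alternative. The 10 genes and all lists were chosen with earlier results of these data known.

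From the log2 of the processed signal the 75th percentile of the 59305 spots of that array was subtracted, and spots of a probe were averaged. The 25940 probes that 1 group or more had well above background on its 3 arrays were fitted in 1 model of all 12 arrays with limma 3.58.1 in R 4.3.3. A call required more than 2-fold and a Benjamini-Hochberg adjusted p below 0.05. Only the XEN-like genotype comparison was a test of the genes, because the other comparisons used arrays that had selected them. Genes on lists were read by their brightest tested probe and named by rule (every member, *Sox7*, up to 5 largest called changes per direction of each list, and the 10 probes most alike by 2 measures). Where a probe was below background on all arrays of a group, a bound was taken per array against the higher of the probe itself and the dimmest probe that the scanner software marked as above background. RefSeq promoters were aligned with Biopython 1.88.

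The share of spots marked as well above background was 41.7% to 52.3%, and the 75th percentile was 252.3 to 415.9 intensity units. With 3 arrays a group, their number sets the precision. Replicates correlated at 0.982 to 0.996. The labels do not state separate cultures, and the source names give 1 replicate number to all 3 samples of *Sox7* (+/−) ES cells, so p-values measure only the spread between these arrays. Deviations of equally numbered arrays correlated at −0.05 to 0.13, and no pairing was assumed. The fit was tested on simulated data. Which part of a transcript each probe reads was not analysed here.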

Additional observations from a re-analysis of the deposited data

Results flagged for a closer look

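Read by their brightest probe, 5 genes had genotype differences of opposite signs in ES and XEN-like cells. Their arrays overlapped in neither comparison. How many of all tested probes did the same was not counted, so nothing is read from the 5. The dimmest *Zscan4c* probe was at −5.20 in ES and −0.17 in XEN-like cells, and the dimmer *Zfp352* probe at −1.87 and −0.095. For both of these probes the XEN-like groups overlapped. With normexp the brightest *Zscan4a* probe was at −0.022 in XEN-like cells. The difference in XEN-like cells minus that in ES cells was 6.21 on the log2 scale for *Zscan4e*, 6.10 for *Zscan4c*, 5.80 for *Zscan4f* and 5.43 for *Zscan4a*, and −1.75 for *Zfp352* by its probe 1. The fit called all 5, but it includes the ES arrays that had selected the genes, so that for these genes the difference was not tested on independent data. The XEN-like values of the *Zscan4* probes lay near the background.

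Of the 33 other two-cell-like genes, 21 were called in the difference between the genotype effects, all towards a higher value in XEN-like cells, beside 6.62% of all tested probes. The filter had kept 11 of the 33 only through the *Sox7* (+/−) ES cells, so that these had to differ between the ES groups. Where both XEN-like groups lay at background, a lower *Sox7* (−/−) ES signal alone gives a positive difference. Nothing is therefore read from that count. In XEN-like cells themselves 22 of the 33 had a lower mean in *Sox7* (−/−) cells, with a median of −0.07, and 1 was called higher. The same difference, tested with limma, was 3.84 for *Cdx2* (standard error 0.51, adjusted p = 4.7e-04), 3.01 for *Hand1* (standard error 0.24, adjusted p = 1.4e-05) and 2.38 for *Eomes* (standard error 0.12, adjusted p = 9.9e-07).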

How the results depend on the processing

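Counts are of genes called with limma. In XEN-like cells the 3 genes of the set called higher became 0 with normexp, 0 in the deposited unscaled table and 2 to 3 with 1 array left out. With normexp *Zscan4a* probe 1 and *Zscan4c* probe 2 turned sign there, to −0.022 and −0.016. Probes not called there turned sign too. With quantile normalization *Tcstv1* was at 0.255, *Zscan4c* probe 3 at 0.140 and *Tmem92* at 0.077, and with spike-in scaling *Zscan4c* probe 3 at 0.075 and *Zfp352* probe 2 at 0.149. In the deposited table *Tcstv3* was at 0.065, *Tcstv1* at 0.0052, *Zscan4c* probe 3 at 0.134, *Gm21319* at 0.047, *Zfp352* probe 2 at 0.127 and *Tmem92* at 0.170. With 1 array left out *Zscan4c* probe 3 ranged from −0.487 to 0.311 and *Zfp352* probe 2 from −0.387 to 0.251. Over all alternatives the adjusted p in XEN-like cells ranged from 7.8e-05 to 0.17 for *Zscan4c* probe 1, 4.4e-05 to 0.064 for *Zscan4e*, 7.3e-05 to 0.85 for *Zscan4a* probe 1 and 5.5e-05 to 0.36 for *Zscan4f*. Requiring a probe to be well above background on every array kept 1 gene of the set, *Zfp352*, so that 0 were called higher in XEN-like cells, 0 lower in *Sox7* (−/−) ES cells, 1 lower with Dex in each genotype, and in the difference between the genotypes 0 positive and 1, *Zfp352*, negative. *Zfp352* probe 1, called higher in *Sox7* (−/−) ES cells, was not called with normexp (0.96), quantile normalization (0.89), median scaling (0.98), spike-in scaling (0.87), the deposited table (0.97) or the slide as a block (1.25). With 1 array left out, the set stayed at 8 to 8 lower in ES cells, 9 to 9 and 7 to 7 lower with Dex in *Sox7* (+/−) and *Sox7* (−/−) cells, and 8 to 8 for the difference.

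Under that strict filter 15 of the other two-cell-like genes were left, and 7 were called lower in *Sox7* (−/−) ES cells, 7 and 4 lower with Dex in *Sox7* (+/−) and *Sox7* (−/−) cells, and 0 between the genotypes in XEN-like cells. The last count, 2 as reported, was 0 with normexp and 1 with only the arrays compared, with the slide as a block or within slide 2. It ranged from 1 to 3 with 1 array left out, and was 1 without *Sox7* (−/−) XEN-like replicate 1 or 2. The 13 lower with Dex in *Sox7* (−/−) cells were 6 with normexp and 7 in the deposited table. Leaving out 1 array gave 21 to 23 in ES cells and 23 to 24 and 12 to 13 with Dex. Of the regulators, the 2 called in ES cells were 1 with quantile normalization, spike-in scaling or the strict filter, and 2 to 4 with 1 array left out, 4 without *Sox7* (+/−) ES replicate 1 or *Sox7* (−/−) ES replicate 2. The 9 lower with Dex in *Sox7* (+/−) cells were 14 with spike-in scaling.

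Equal replicate numbers did not pair the arrays. With the replicate block, 3 genes of the set were called higher in XEN-like cells and 8 lower in ES cells, and *Zscan4c* probe 1 differed by 1.83 in XEN-like cells (limma adjusted p = 6.7e-04). For single probes in XEN-like cells, 261 of 291 values under the alternatives kept both their direction and their side of the threshold, and 17 turned sign. Signal over background limits these comparisons, since 11 of the 13 probes were below background on every *Sox7* (+/−) XEN-like array. The cause of the changes with normexp was not tested.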
